A study of Carassius auratus with 6 samples.

Results

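The genes of muscle calcium release and buffering described here were 106 of the 83088 gene rows of a skin expression table of the golden-back crucian carp. A row was taken when its product name began with ryanodine receptor, sarcoplasmic/endoplasmic reticulum calcium ATPase (SERCA), calsequestrin, parvalbumin, junctophilin, triadin, sarcalumenin or voltage-dependent L-type calcium channel; junctional sarcoplasmic reticulum protein was also searched and had 0 rows. The rule used names alone and no measured value. The rows comprised 26 L-type channel subunits, 18 ryanodine receptors, 16 SERCA pumps, 15 parvalbumins, 13 junctophilins, 9 calsequestrins, 5 sarcalumenins and 4 triadins, of which 94 were annotated as protein coding, 10 as pseudogenes and 2 as long non-coding RNAs.

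Skeletal muscle keeps a store of calcium in its sarcoplasmic reticulum. When the fibre is excited, an L-type channel in the surface membrane senses the voltage and opens ryanodine receptors in the store, calcium flows into the cytosol and the filaments contract, and SERCA pumps then return the calcium. Calsequestrin and sarcalumenin bind calcium inside the store, junctophilin and triadin hold the membranes and the channel complex together, and parvalbumin, abundant in the fast muscle of fish, binds calcium in the cytosol.

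The series compared golden and greenish grey skin of Carassius auratus. The paper describes the golden-back carp as a natural mutant that carries both skin colours, with the golden skin lying on its back. The exact place of sampling is not stated, so skin colour and body position cannot be told apart here. Messenger RNA of female fish was sequenced in 6 libraries, 3 of golden and 3 of greenish grey skin, with no treatment, allele or age in the labels. For its small RNA libraries the study took both skin colours from the same fish and gives their age, but neither is stated for these mRNA libraries. The labels do not say whether the replicates were separate fish, so a p-value measures only the spread between these libraries.

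Skin libraries of both colours held muscle transcripts. Of all counts, 13.9%, 8.06% and 3.30% fell on a reference list of fast, slow and shared sarcomere genes in golden libraries 1 to 3, against 9.47%, 3.86% and 3.90% in greenish grey libraries 1 to 3. Keratins and other epidermis markers took 0.410% to 2.61% of golden and 0.809% to 2.30% of greenish grey libraries, and pigment genes of melanophores took 0.00165% to 0.00224% of golden and 0.00720% to 0.0195% of greenish grey libraries, without overlap. Total counts were 51493103 to 67595616 per library. In such bulk samples, fewer muscle cells and less muscle RNA per cell cannot be told apart.

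To find out whether the calcium genes differed between the colours, counts were compared with edgeR over the 26421 genes that averaged 1 FPKM or more (fragments scaled to gene length and library size). This minimum kept 56 of the 106 members: 13 SERCA, 10 parvalbumins, 8 junctophilins, 7 calsequestrins, 7 ryanodine receptors, 5 sarcalumenins, 3 triadins and 3 L-type channel subunits. Of the 50 others, 12 had no count in any library. The members just outside the minimum were LOC113051720, an L-type subunit beta-2 at 0.962 FPKM, and LOC113109908, a ryanodine receptor 1 at 0.981 FPKM, and those just inside it were LOC113109947 and LOC113063123, ryanodine receptors at 1.096 FPKM each.

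The members lay mostly higher in golden skin, with 1 parvalbumin well apart from the rest. The log2 fold change of golden over greenish grey was above 0 in 45 of the 56 members and below 0 in 11, a share above 0 of 80.4%, against 53.2% of all genes tested. The count above 0 depended on the fit. It was 33 of 56 members without golden library 1, against 53.2% of all genes, and 33 with the muscle share as a covariate, against 51.2%. In limma on FPKM it was 34 to 39 members, against 36.0% to 38.4% of all genes. In the unpaired edgeR fit the median was 0.72 over the members and 0.03 over all genes. The range ran from -1.998 for a calsequestrin-2 to 4.55 for a parvalbumin-7.

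Few of these differences were larger than the spread between libraries. At an adjusted p under 0.05 edgeR called 0 of the 56 members and 0.0% of all genes. At an unadjusted p under 0.05 it had 2 of the 56 members, against 1163 of the 26421 genes tested. DESeq2 called 1 member at an adjusted p under 0.05, with 0.776% of all genes. A fold change beyond 2 with an unadjusted p under 0.05 was found for 2 members, both higher in golden skin, or 3.57%, against 2.77% of all genes, 1.26% higher and 1.51% lower. On scaled counts the groups did not overlap in 1 member, higher in golden skin, against 4.99% of all genes higher, 5.08% lower and 10.1% in either direction. In FPKM they did not overlap in that member and in 1 other that was lower in golden skin, against 2.37% of all genes higher and 7.90% lower.

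Libraries that carried the same replicate number deviated together, but less so in number 2. Correlations of the deviations over genes were 0.743, 0.263 and 0.737 for numbers 1, 2 and 3. A fit with the number as a block made more calls. With this block, 14 members were higher and 1 was lower by over 2-fold with an unadjusted p under 0.05, against 5.05% of all genes, 2.42% higher and 2.63% lower. None of the 56 reached an adjusted p under 0.05 with the block in edgeR, where 0.00378% of all genes did and the lowest adjusted p of a member was 0.158. The median was 0.55 with the block, and 38 of 56 members were above 0, against 49.5% of all genes. Within the numbered pairs, 22 members, or 39.3%, were higher in golden skin in all 3 pairs, against 19.5% of all genes, and 4 were lower in all 3, against 20.0%.

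**Figure D1:**
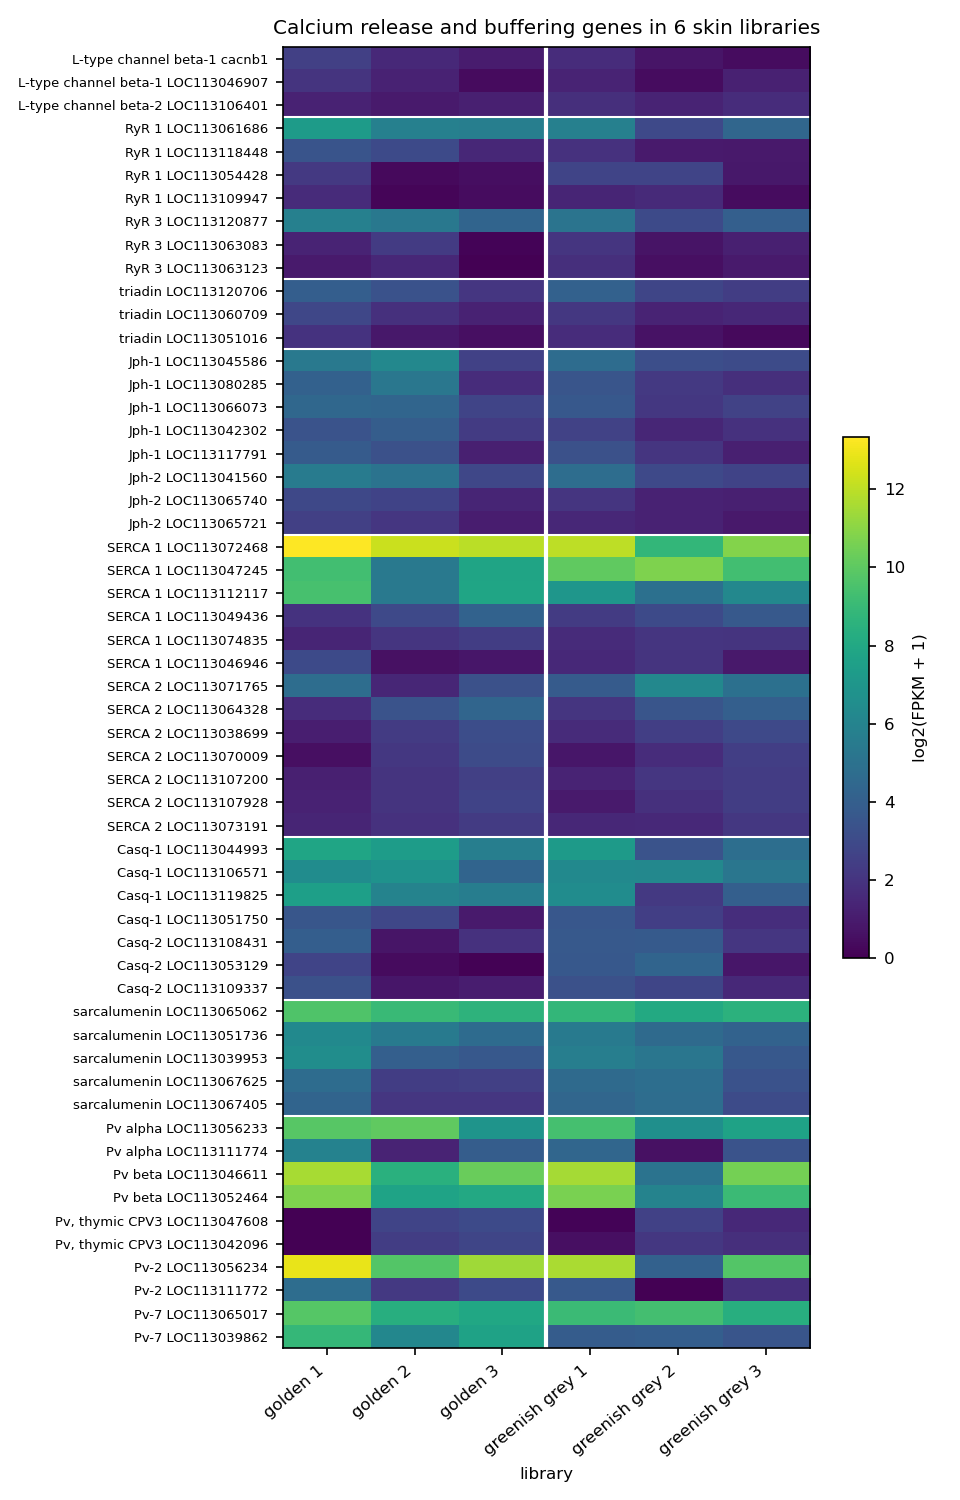
Level of each of the 56 members tested (rows, grouped by family with white lines) in the 3 golden libraries (left of the thick line) and the 3 greenish grey libraries (right), as log2(FPKM + 1) on the colour scale. The highest row is the SERCA1 copy LOC113072468 with 10284 FPKM in golden library 1, and on scaled counts the groups do not overlap in 1 row only, LOC113039862 at the bottom.

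The voltage sensor was represented by its beta subunits, which help bring the channel to the membrane. The muscle subunit beta-1, cacnb1 (chromosome 3, 3578660 to 3612258), had 4.74, 1.92 and 1.01 FPKM in golden libraries 1 to 3, against 2.23, 0.682 and 0.351 FPKM in greenish grey libraries 1 to 3. Within each number the golden library was higher, while across numbers the groups overlapped. In the unpaired fit the log2 fold change was 1.44 (SE 0.98), with an adjusted p of 0.9998 in edgeR, and 1.51 (SE 0.19) with the block, with an adjusted p of 0.158. The 3 pairs gave log2 ratios of 1.36, 1.62 and 1.46. Its copy on chromosome 28, LOC113046907, named after its values had been seen, had ratios of 1.27, 2.15 and -2.12, so that the libraries numbered 3 ran the other way.

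Subunit beta-2, known from heart and nerve cells of mammals, was at the same low level. LOC113106401 on chromosome 7 had 1.46, 0.963 and 1.22 FPKM in golden libraries, against 2.41, 1.52 and 2.28 FPKM in greenish grey libraries. In FPKM every golden library was below every greenish grey library, while on scaled counts the groups overlapped, with a log2 fold change of -0.60 (SE 0.40). The remaining 23 L-type rows, among them alpha-1C and alpha-1D pore subunits, were under the minimum, and 5 of them had no count.

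The pore subunit of the skeletal muscle channel, Cav1.1, carries another product name in this annotation, dihydropyridine-sensitive L-type channel, and so lay outside the rule. Its 4 tested copies were looked up after other values had been seen. LOC113093954 had 30.1, 32.6 and 7.93 FPKM in golden libraries, against 14.4, 2.55 and 4.03 FPKM in greenish grey libraries (log2 fold change 1.88, SE 0.94). LOC113040331 had 11.3, 0.291 and 1.80 FPKM in golden libraries, against 7.18, 7.29 and 3.67 FPKM in greenish grey libraries (-0.06, SE 1.23). LOC113093954 was lowest in greenish grey library 2 and LOC113040331 in golden library 2, a contrast that recurred in other families. In the unpaired fit 2 of the 4 copies were above 0 and 2 below, and 4, 1 and 1 of the copies were higher in golden skin in pairs 1, 2 and 3. Their median log2 fold change was 0.13, or -0.82 with the block.

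Ryanodine receptor 1, the release channel of skeletal muscle, had 4 tested copies, 2 above 0 and 2 below in the unpaired fit. In pairs 1, 2 and 3, 3, 2 and 2 of them were higher in golden skin. LOC113061686 on chromosome 43, the most abundant, had 159, 55.0 and 50.8 FPKM in golden libraries, against 54.8, 6.79 and 20.4 FPKM in greenish grey libraries. Only greenish grey library 1 reached into the golden range. Its log2 fold change was 1.89 (SE 1.02) and with the block 2.09 (SE 0.44, adjusted p 0.251 in edgeR).

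Its partner on chromosome 18, LOC113118448 (11318056 to 11416149), was the second member beyond 2-fold with an unadjusted p under 0.05. It had 9.95, 6.94 and 1.83 FPKM in golden libraries, against 2.68, 0.981 and 0.909 FPKM in greenish grey libraries. The golden library was higher in each pair, with log2 ratios of 2.17, 2.97 and 0.996, and golden library 3 lay below greenish grey library 1. The log2 fold change was 2.24 (SE 0.88) with an adjusted p of 0.9998 in edgeR, and 2.05 (SE 0.42, adjusted p 0.239) with the block. The call at an unadjusted p under 0.05 was lost in edgeR without golden library 1 (p 0.109) or 2 (0.0685) and without greenish grey library 2 (0.119) or 3 (0.111).

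The other copies of ryanodine receptor 1 ran the opposite way, and were named after their values had been seen. LOC113054428 on chromosome 35 had 3.61, 0.277 and 0.409 FPKM in golden libraries, against 5.53, 5.59 and 0.791 FPKM in greenish grey libraries (log2 fold change -1.12, SE 1.26). LOC113109947 on chromosome 10 had 2.13, 0.116 and 0.364 FPKM in golden libraries, against 1.64, 1.96 and 0.367 FPKM in greenish grey libraries (-0.25, SE 1.19). Both were lowest in golden library 2.

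Ryanodine receptor 3, a second muscle isoform that fish express in quantity, was led by LOC113120877 on chromosome 20. It had 55.2, 39.4 and 18.3 FPKM in golden libraries, against 34.1, 6.99 and 15.3 FPKM in greenish grey libraries (log2 fold change 1.18, SE 0.82). The golden library was higher in all 3 pairs, and the groups overlapped. The 2 lower copies on chromosome 45 were higher in golden skin only in the libraries numbered 2. Over the 7 tested ryanodine receptors the median log2 fold change was 0.26 unpaired and -0.58 with the block, so its sign depended on the pairing.

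Triadin links the release channel to calsequestrin in the lumen of the store. LOC113120706 on chromosome 20 had 14.8, 9.12 and 3.30 FPKM in golden libraries, against 16.4, 5.95 and 4.34 FPKM in greenish grey libraries (log2 fold change 0.23, SE 0.84). The values followed the replicate number, highest in number 1 for both colours, and did not separate by colour. All 3 tested triadins were above 0, with a median of 0.70.

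Junctophilins hold the store close to the surface membrane, and all 8 tested copies were above 0, with log2 fold changes of 0.99 to 1.85 and a median of 1.37, or 1.24 with the block. Of these, 5 were higher by over 2-fold with an unadjusted p under 0.05 with the block, against 2.42% of all genes. In the unpaired fit 0 were, against 1.26% of all genes. All 8 were higher in golden skin in pairs 1 and 2, and 5 were in pair 3.

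The leading junctophilin-1, LOC113045586 on chromosome 27, had 40.3, 73.4 and 5.01 FPKM in golden libraries, against 24.8, 8.10 and 7.197 FPKM in greenish grey libraries. Golden library 3 was the lowest of all 6, so the groups overlapped (log2 fold change 1.70, SE 1.04). The leading junctophilin-2, the form known from mammalian heart as well as skeletal muscle, was LOC113041560 on chromosome 23, with 45.6, 32.9 and 6.18 FPKM in golden libraries, against 25.8, 6.80 and 5.30 FPKM in greenish grey libraries (1.34, SE 1.01). The junctophilins did not include a copy that was lowest in golden library 2.

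SERCA pumps took more of the counts than any other family, with 4.196%, 1.79% and 1.64% in golden libraries 1 to 3, against 1.92%, 0.828% and 0.947% in greenish grey libraries. Nearly all of this was SERCA1, the pump of fast muscle. LOC113072468, on an unplaced scaffold, had 10284, 4823 and 4000 FPKM in golden libraries, against 4099, 454 and 1845 FPKM in greenish grey libraries. Golden libraries were higher in each pair, by log2 ratios of 1.61, 3.57 and 1.11, and golden library 3 and greenish grey library 1 lay side by side. Unpaired, its log2 fold change was 1.76 (SE 1.09), and 2.07 (SE 0.59) with the block, with an adjusted p of 0.316 for that fit in edgeR.

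The next copy, LOC113047245 (chromosome 3, 9858083 to 9870040), went the other way, and it and LOC113112117 were named after their values had been seen. It had 633, 40.4 and 216 FPKM in golden libraries, against 1073, 1753 and 616 FPKM in greenish grey libraries. The golden library was lower in each pair, with log2 ratios of -0.48, -5.28 and -1.52, and only golden library 1 reached into the greenish grey range. The log2 fold change was -1.62 (SE 1.09) and -2.23 (SE 1.04) with the block. LOC113112117 was high in golden library 1, with 705, 40.7 and 228 FPKM in golden libraries, against 126, 29.4 and 72.6 FPKM in greenish grey libraries (2.37, SE 1.18). That value was 1.68 with the block, 0.67 without golden library 1 and 3.08 without greenish grey library 1.

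The division of SERCA1 counts between the leading copies therefore differed between libraries. LOC113072468 took 88.8%, 98.1% and 89.6% of SERCA1 counts in golden libraries, against 78.0%, 20.9% and 73.0% in greenish grey libraries. LOC113047245 took 5.20%, 0.782% and 4.60% in golden libraries, against 19.4%, 76.8% and 23.2% in greenish grey libraries. Neither share overlapped between the colours, and greenish grey library 2 was the only library in which LOC113047245 led. These shares were examined after the values of the copies had been seen and carry no test.

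The summed share of slow muscle markers was likewise lowest in golden library 2 and highest in greenish grey library 2. The slow list (29 of its 37 genes tested, 1 troponin I row without a count) took 0.769%, 0.0460% and 0.204% of counts in golden libraries, against 1.18%, 2.25% and 0.814% in greenish grey libraries. As unscaled shares the groups did not overlap. With the TMM factors (0.751 for golden library 1, 1.15 for greenish grey library 3) golden library 1 lies above greenish grey library 3, so on scaled counts the groups overlap. The genes of the slow list were split, with 14 of the 29 above 0 and 15 below, a median log2 fold change of -0.095, and 17, 0 and 6 higher in golden skin in pairs 1, 2 and 3. The fast list (74 of 107 genes tested, 9 rows without a count, most of them myosin heavy chains) took 11.9%, 7.44% and 2.83% in golden libraries, against 7.65%, 1.33% and 2.89% in greenish grey libraries, with 68 of the 74 above 0. Slow counts thus came to 6.46%, 0.618% and 7.22% of fast counts in golden libraries, against 15.4%, 169% and 28.2% in greenish grey libraries. The part of fibre type in the differences between copies was not tested.

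**Figure D2:**
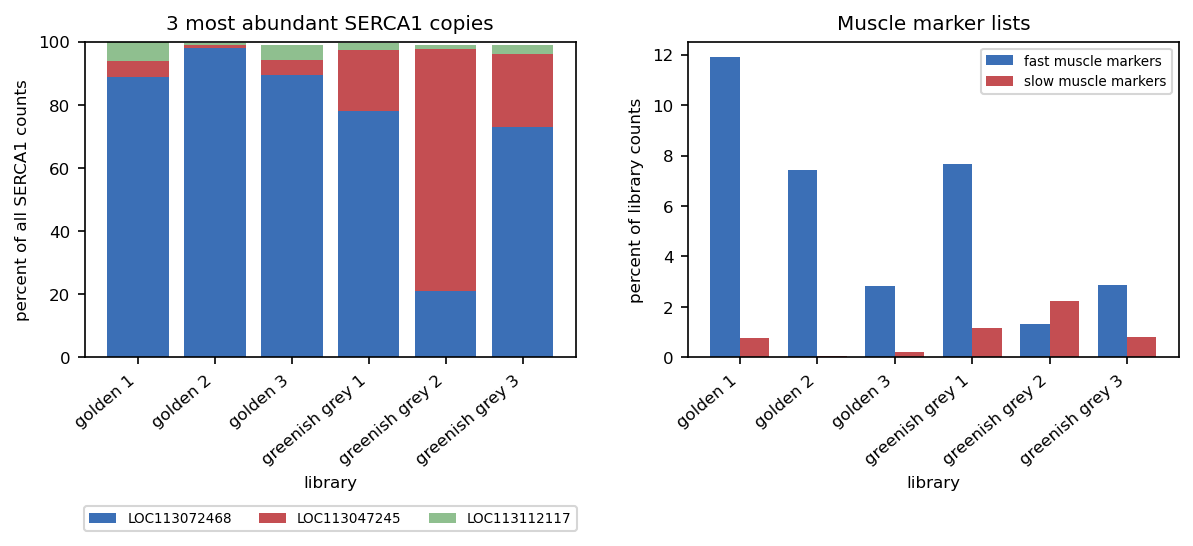
Left, share of all SERCA1 counts taken by the 3 most abundant copies in each library (stacked bars, percent); right, share of all library counts taken by the fast and the slow muscle marker lists (bars, percent), golden libraries left of greenish grey libraries. LOC113047245 takes 76.8% of SERCA1 counts in greenish grey library 2, where slow markers (2.25%) exceed fast markers (1.33%), and 0.782% in golden library 2, where slow markers are at 0.0460%.

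SERCA2, the pump of slow muscle, heart and most other cells, had 7 tested copies. LOC113071765, on an unplaced scaffold, had 25.7, 1.69 and 8.92 FPKM in golden libraries, against 13.3, 74.0 and 29.2 FPKM in greenish grey libraries (log2 fold change -1.29, SE 1.08). It was again lowest in golden library 2 and highest in greenish grey library 2. The other 6 copies lay between 0.04 and 0.63 and were lower in the libraries numbered 1 of both colours than in those numbered 3, as LOC113064328, picked after its values had been seen, shows with 2.20, 9.76 and 19.4 FPKM in golden libraries, against 3.17, 10.5 and 15.2 FPKM in greenish grey libraries. The order of the libraries thus followed the replicate number in these copies.

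Calsequestrins, the calcium-binding proteins of the store, parted by isoform in the unpaired fit. All 4 calsequestrin-1 copies, the form of fast muscle, were above 0 with a median of 0.88, and all 3 tested calsequestrin-2 copies, the form of slow muscle and heart, were below 0 with a median of -0.32. In pairs 1, 2 and 3, calsequestrin-1 was higher in golden skin in 4, 4 and 2 copies, and calsequestrin-2 in 2, 0 and 0 copies. With the block, 3 calsequestrin-1 copies and 0 calsequestrin-2 copies were above 0. LOC113044993 (calsequestrin-1, chromosome 27) had 227, 164 and 50.5 FPKM in golden libraries, against 152, 9.60 and 27.1 FPKM in greenish grey libraries (log2 fold change 1.36, SE 1.18). Its partner on chromosome 2, LOC113119825, named after its values had been seen, had 185, 60.2 and 48.4 FPKM in golden libraries, against 87.0, 3.68 and 15.4 FPKM in greenish grey libraries (1.64, SE 1.26). Both were lowest in greenish grey library 2.

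Calsequestrin-2 was at 0.301 to 0.724 FPKM in golden library 2 over its 3 tested copies. LOC113108431 on chromosome 9 had 14.9, 0.701 and 2.78 FPKM in golden libraries, against 12.3, 12.7 and 3.24 FPKM in greenish grey libraries (log2 fold change -0.28, SE 1.18). LOC113053129 on chromosome 34, also named after its values had been seen, had 5.56, 0.301 and 0.0568 FPKM in golden libraries, against 11.9, 18.9 and 0.744 FPKM in greenish grey libraries (-1.998, SE 1.77). With the block it was the only member that was both lower by over 2-fold and at an unadjusted p under 0.05, at -3.30 (SE 1.08) and an adjusted p of 0.339 in edgeR, and its groups overlapped through golden library 1 and greenish grey library 3.

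Heart markers as a sum were also lowest in golden library 2 and highest in greenish grey library 2, but the list was split. It took 0.103%, 0.00414% and 0.0246% of counts in golden libraries, against 0.183%, 0.313% and 0.113% in greenish grey libraries. Of its 11 tested genes 6 were above 0 and 5 below, with a median log2 fold change of 1.67. The cardiac troponin T row LOC113058495 had 322, 19.0 and 101 FPKM in golden libraries, against 926, 1576 and 565 FPKM in greenish grey libraries, whereas the myosin light chain 4 row LOC113094284 had 233, 3.23 and 21.2 FPKM in golden libraries, against 5.99, 22.0 and 25.6 FPKM in greenish grey libraries. Both rows were named after their values had been seen. Both natriuretic peptides A rows, made by heart cells, had no count in any of the 6 libraries. Smooth muscle markers took 0.0577% to 0.0621% in golden and 0.0593% to 0.101% in greenish grey libraries.

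Sarcalumenin, a further calcium-binding protein of the store, passed the minimum in all 5 copies. LOC113065062 on chromosome 47 had 808, 520 and 384 FPKM in golden libraries, against 452, 270 and 373 FPKM in greenish grey libraries. Golden library 3 lay below greenish grey library 1, and the log2 fold change was 0.86 (SE 0.59). Another 2 copies were above 0, and LOC113067625 (-0.49, SE 0.92) and the pseudogene LOC113067405 (-0.76, SE 0.94) were below 0, named here after their values had been seen. The family median was 0.57, or -0.01 with the block.

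Parvalbumins, which speed relaxation by binding calcium in the cytosol, were above 0 in all 10 tested copies in the unpaired fit, with a median of 1.099. Without golden library 1, LOC113052464 (-1.72), LOC113046611 (-1.07), LOC113065017 (-0.84), LOC113111774 (-0.53) and LOC113111772 (-0.021) were below 0, and the other tested copies stayed above 0. LOC113052464 and LOC113111774 were picked after their values had been seen. With the block 8 of the 10 were above 0, and 3 were higher by over 2-fold with an unadjusted p under 0.05, against 2.42% of all genes. The family took 1.24%, 0.267% and 0.408% of counts in golden libraries, against 0.792%, 0.0932% and 0.306% in greenish grey libraries, so that number 1 was highest and number 2 lowest in both colours.

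The largest difference of all members was in parvalbumin-7, in LOC113039862 (chromosome 22, 17602499 to 17631716, minus strand, protein coding). It had 470, 71.9 and 206 FPKM in golden libraries, against 13.6, 14.9 and 10.2 FPKM in greenish grey libraries. The underlying counts were 27401, 4525 and 15446 in golden libraries, against 782, 1054 and 746 in greenish grey libraries. Every golden library was above every greenish grey library, with means of 249 ± 203 FPKM and 12.9 ± 2.41 FPKM (SD, n = 3 each).

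The log2 fold change of LOC113039862 was 4.55 (SE 0.88), a 23.5-fold difference. Its unadjusted p was 0.00159 in the unpaired edgeR fit, whereas its adjusted p over 26421 genes was 0.9998 in edgeR, 0.196 in edgeR with the block and 2.07e-06 in DESeq2. Over all 18 fits, including each left-out library, the log2 fold change stayed between 3.34 and 4.99. It was the only member that kept an unadjusted p under 0.05 and a fold change beyond 2 in every fit.

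The second parvalbumin-7 copy, LOC113065017 (chromosome 47, 8783766 to 8812982), did not separate the colours. It had 888, 323 and 247 FPKM in golden libraries, against 548, 658 and 321 FPKM in greenish grey libraries (log2 fold change 0.22, SE 0.73, and -0.10 with the block). LOC113039862 accordingly took 35.2%, 18.6% and 46.1% of the parvalbumin-7 counts in golden libraries, against 2.49%, 2.27% and 3.17% in greenish grey libraries. Both copies span nearly the same length, 29218 and 29217 bases, and how reads that match both were divided is not given in the sources used here. The muscle reference share overlapped between the colours, at 3.30% to 13.9% in golden and 3.86% to 9.47% in greenish grey libraries.

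**Figure D3:**
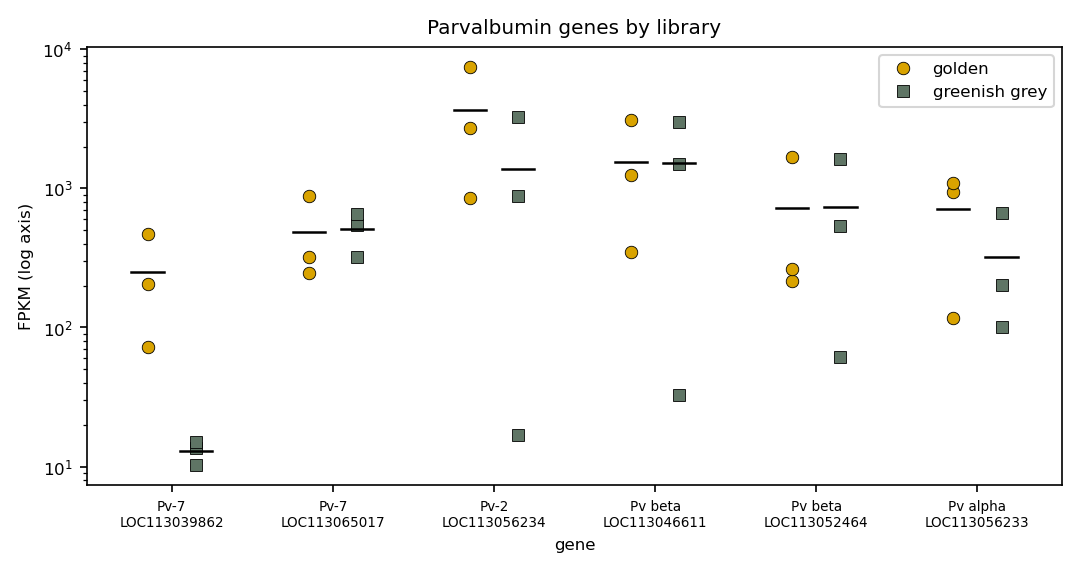
FPKM on a log axis of 6 parvalbumin genes in each golden library (circles, left of each gene) and each greenish grey library (squares, right), with the mean as a line. For LOC113039862 the golden libraries lie at 71.9 to 470 FPKM and the greenish grey libraries at 10.2 to 14.9 FPKM, and the groups of the other 5 genes overlap.

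The muscle parvalbumins varied mainly between libraries of a colour. LOC113056234 (parvalbumin-2, chromosome 37) had 7481, 860 and 2739 FPKM in golden libraries, against 3238, 16.9 and 882 FPKM in greenish grey libraries (log2 fold change 1.61, SE 1.65, and 2.76, SE 1.01, with the block). LOC113046611 (parvalbumin beta, chromosome 28) had 3087, 346 and 1243 FPKM in golden libraries, against 3009, 32.7 and 1493 FPKM in greenish grey libraries (0.26, SE 1.47). Greenish grey library 2 was the lowest library for both.

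LOC113056233 (parvalbumin alpha, chromosome 37) lies 1.59 kb from LOC113056234, yet its order of libraries was another. It had 937, 1092 and 117 FPKM in golden libraries, against 670, 100.3 and 201 FPKM in greenish grey libraries (log2 fold change 1.29, SE 1.101). In FPKM it was highest in golden library 2, but on scaled counts in golden library 1. The thymic CPV3 form, named from a parvalbumin of the chicken thymus, was nearly absent from the libraries numbered 1. LOC113047608 on chromosome 28 had 0, 5.72 and 6.98 FPKM in golden libraries, against 0.0895, 5.03 and 1.88 FPKM in greenish grey libraries (0.91, SE 1.69).

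**Figure D4:**
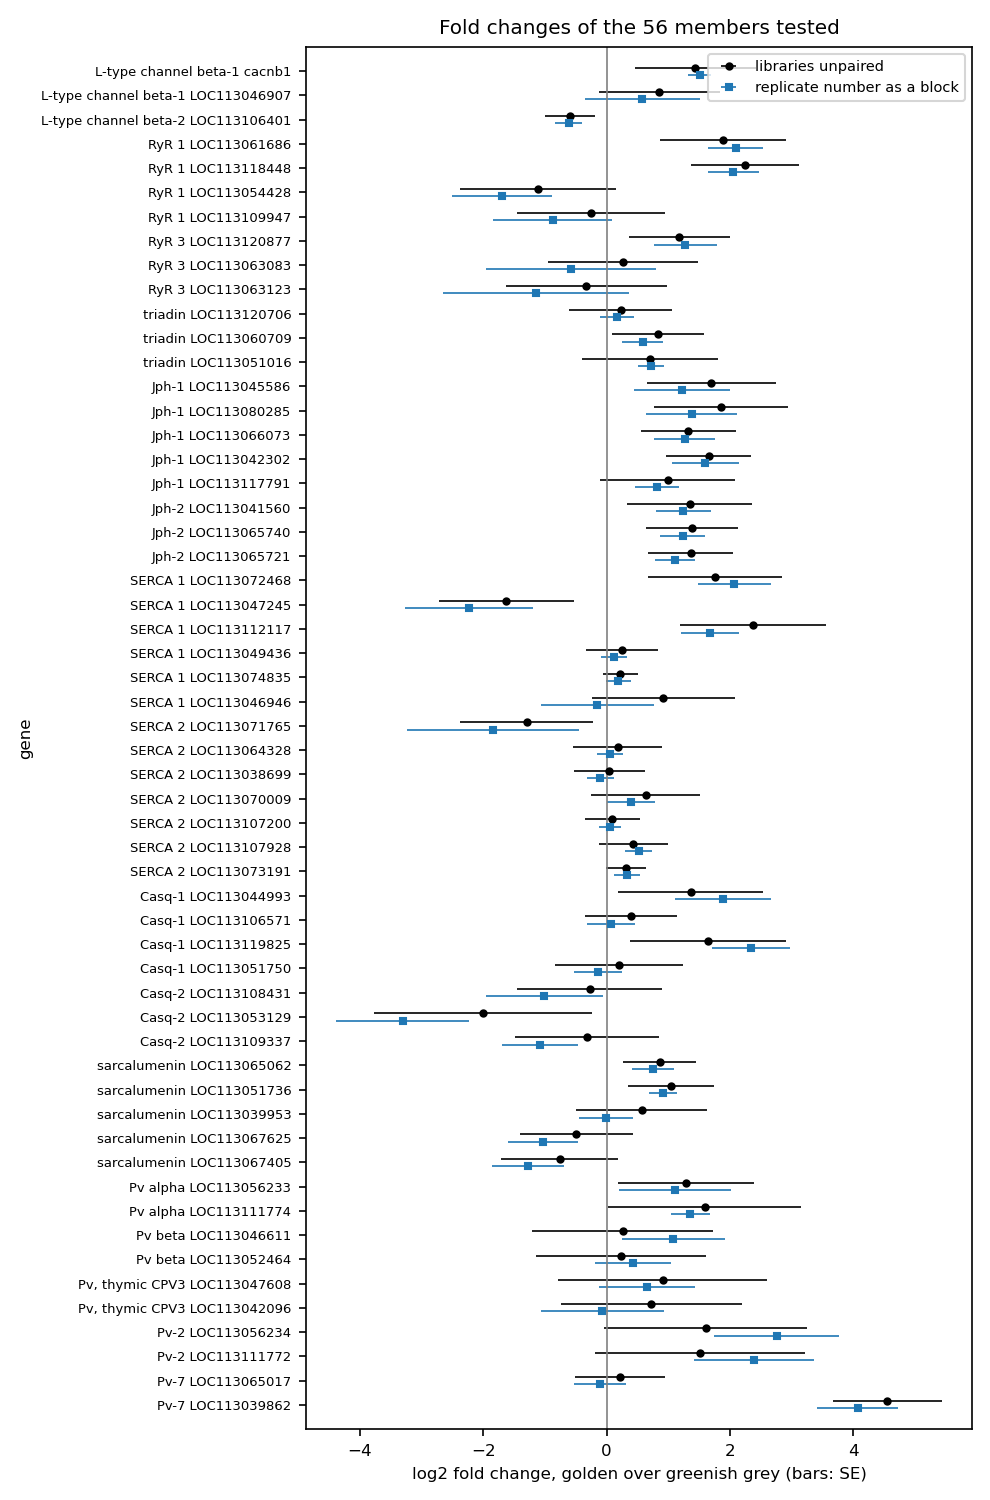
Log2 fold change of golden over greenish grey for each of the 56 members tested, with its standard error, from the unpaired fit (black circles) and from the fit with the replicate number as a block (blue squares), by family. LOC113039862 lies at 4.55, all 8 junctophilins lie at 0.99 or above in the unpaired fit, and 45 of the 56 black circles lie right of 0.

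In the pair of libraries numbered 2, some members lay far from 0 in each direction. In that pair 20 members had a log2 ratio over 2, against 2.79% of all genes, and 10 had a ratio under -2, against 1.56%. The other tested members lay between these limits. The 10 low members comprised 2 SERCA1, 1 SERCA2, 3 calsequestrin-2, 2 ryanodine receptor 1 and 2 sarcalumenin copies. All 10 were below 0 in pair 3 as well, with ratios from -2.76 to -0.01, while 7 of them were above 0 in pair 1. Of the 20 high members, 18 were above 0 in pair 1 and 13 in pair 3. These sets were chosen on the ratios of pair 2, and their values there are a description.

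Leaving out golden library 1 left most calls lower in golden skin. Without it, 10 members were lower and 1 was higher by over 2-fold with an unadjusted p under 0.05, against 3.25% of all genes lower and 0.969% higher. All 10 were the members with a pair 2 ratio under -2. That fit keeps both libraries numbered 2, on which the low set was chosen, so the match follows largely from the choice. Without greenish grey library 1, by contrast, 11 were higher and 0 lower, against 2.15% of all genes higher. The median over the 56 members was 0.84, 0.87 and 0.17 in pairs 1, 2 and 3, so the shift was smallest in the libraries numbered 3.

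**Figure D5:**
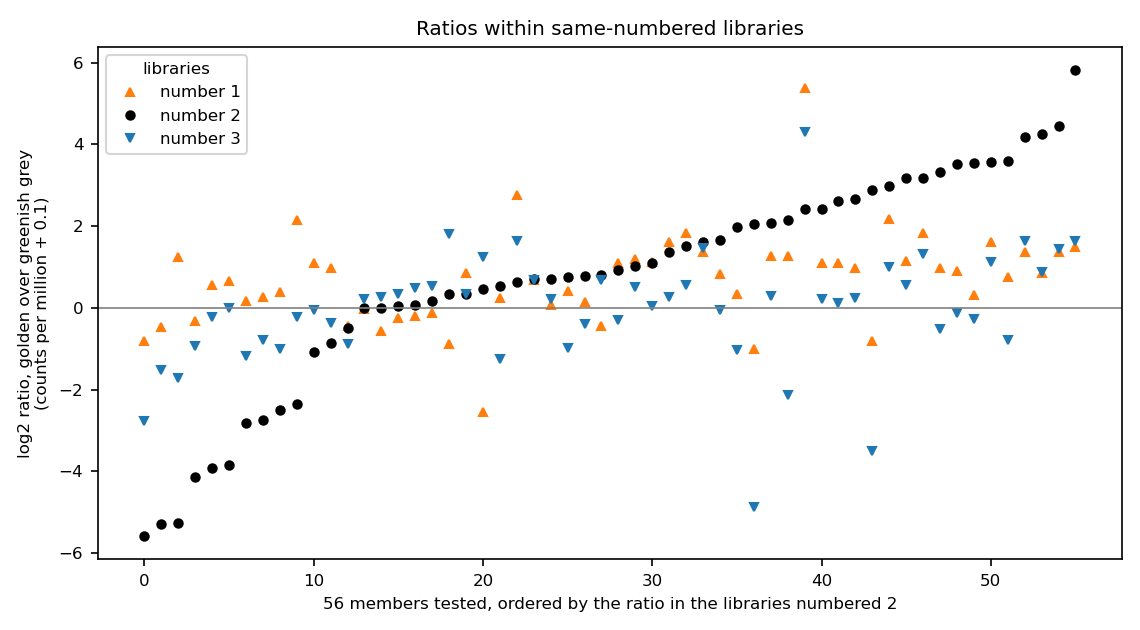
Log2 ratio of golden over greenish grey for the 56 members tested within the libraries numbered 1 (triangles up), 2 (circles) and 3 (triangles down), members ordered by the ratio in number 2. At the left end 10 members lie under -2 in number 2 and below 0 in number 3; at the right end 20 lie over 2 in number 2.

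Summed over all 106 rows, the members held 6.33%, 2.56% and 2.34% of counts in golden libraries, against 3.19%, 1.11% and 1.47% in greenish grey libraries. The golden library was higher in each pair, and golden libraries 2 and 3 lay below greenish grey library 1. Per 1000 counts of the muscle reference list, which shares no gene with the members, there were 454, 318 and 708 member counts in golden libraries, against 336, 288 and 378 in greenish grey libraries. The mean was 493 ± 198 in golden and 334 ± 44.99 in greenish grey skin (SD, n = 3 each), and golden library 2 lay within the greenish grey range. The SERCA1 copy LOC113072468 alone took 58.7%, 68.2% and 61.9% of member counts in golden libraries, against 46.7%, 14.7% and 45.4% in greenish grey libraries. These sums therefore lean on that gene, and they were not computed without it. With the muscle share as a covariate, 4 members were higher and 2 were lower by over 2-fold with an unadjusted p under 0.05, against 1.87% of all genes higher and 3.56% lower.

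Many members have a copy of the same product on a chromosome whose number is 25 higher, and 13 of 22 such combinations with both copies tested had log2 fold changes within 0.5 of each other. Some copies recur in these combinations. The share among other combinations of genes was not computed, so nothing is read from the count. For ryanodine receptor 1 the copies LOC113118448 and LOC113061686 had 2.24 and 1.89, and for parvalbumin-2 LOC113111772, picked after its values had been seen, and LOC113056234 had 1.52 and 1.61, at mean levels of 8.55 and 2536 FPKM. Exceptions included parvalbumin-7, with 4.55 and 0.22, and calsequestrin-2, with -0.28 for LOC113108431 and -1.998 for LOC113053129. Ryanodine receptor 3 had 1.18 for LOC113120877 and -0.33 for LOC113063123, picked after its values had been seen. Another combination of ryanodine receptor 1, LOC113109947 and LOC113054428, had -0.25 and -1.12. SERCA1 on chromosomes 3 and 28 had -1.62 for LOC113047245 and 0.92 for LOC113046946, which was also picked after its values had been seen. The value of LOC113046946 was -0.15 with the block and -1.67 without golden library 1, so the opposite signs were not kept in those fits. Differences between copies were not tested, and reads of near-identical copies may have been divided between them.

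Other genes of calcium handling, taken from a list by product name, showed a smaller shift than the members. Of 241 rows 111 were tested, with 72 above 0, 39 below 0 and a median of 0.29. The medians of the fast and shared sarcomere lists, 1.24 and 1.22, were above the 0.72 of the members, and that of the slow list was -0.095. Fold changes beyond 2 with an unadjusted p under 0.05 were found for 3 of the 111, all higher in golden skin, beside 2.77% of all genes in either direction and 1.26% higher, so nothing is read from the count. They were a plasma membrane calcium pump (LOC113060797, 1.097), the store sensor STIM2 (LOC113106588, 1.14) and the scaffold homer-2 (LOC113061341, 1.15). Genes of the excited membrane were mostly higher, with 3 of 3 muscle sodium channels (median 1.60) and 5 of 6 acetylcholine receptor subunits (median 1.21) above 0. These 3 genes, these groups and the genes that follow were picked after their values had been seen. LOC113091735, a phospholamban, which restrains the SERCA pump in mammalian heart, had 163, 53.9 and 32.6 FPKM in golden libraries, against 53.1, 19.1 and 23.3 FPKM in greenish grey libraries (1.65, SE 0.86). Of the 3 tested phospholamban rows 2 were above 0 and 1 was below, and only 1 was higher in golden skin in pair 2.

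The histidine-rich calcium-binding protein of the store, LOC113056393, resembled the low set. It had 18.8, 0.883 and 2.59 FPKM in golden libraries, against 21.1, 30.9 and 5.74 FPKM in greenish grey libraries (log2 fold change -0.99, SE 1.25). It was lowest in golden library 2 like the calsequestrin-2 copy LOC113108431, whereas the calsequestrin-2 copy LOC113053129 was lowest in golden library 3.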

How the data were processed

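Skin mRNA of 6 libraries was analysed, 3 golden and 3 greenish grey, grouped and numbered by their titles. The deposited table held raw counts per gene, which the authors had not normalized, for 83088 gene rows. It also held FPKM values made by the authors, in which 0.0001 stood for a count of 0 and was set to 0 here. The aligner, the counting tool, the use of strand and the treatment of reads that match several copies are not given in the sources used here. The labels name a mouse genome build, whereas all 106 members had the start position of the RefSeq gene table of ASM336829v1, which gave coordinates and chromosome numbers. No genome or protein sequence was used.

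Counts were tested with the two-sided quasi-likelihood test of edgeR 4.0.16 (R 4.3.3, TMM scaling, group as the only term) over the 26421 genes that averaged 1 FPKM or more, and p-values were adjusted by the method of Benjamini and Hochberg over all of them. The SE is the log2 fold change divided by the square root of F. Ratios of numbered pairs use scaled CPM values plus 0.1, and overlap of single genes was judged on the same scaled counts unless FPKM is named. Overlap of shares was judged on unscaled counts unless stated. Total counts of 51493103 to 67595616 per library limit precision for genes near 1 FPKM. Alternatives were DESeq2 1.42.0, limma 3.58.1 on log2(FPKM + 1), other scalings and filters, a replicate block, a muscle covariate and each library left out.

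Golden and greenish grey libraries of the same number shared their deviations from the group means (correlations over genes of 0.743, 0.263 and 0.737 for numbers 1, 2 and 3). The largest value between unlike numbers was 0.0877. The labels do not say what a number marks, so the pairing rests on these values.

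Named genes were the most abundant tested copy of each product, members beyond 2-fold with an unadjusted p under 0.05, and members at an adjusted p under 0.05 with the block; others are marked as named or picked after their values had been seen. The members, lists and rules were chosen with earlier results of these data known.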

Additional observations from a re-analysis of the deposited data

How the results depend on the processing

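The count of members past 2-fold at an unadjusted p under 0.05 was the result that moved most. Against 2 in the unpaired edgeR fit, it was 6 in DESeq2, 6 in limma on log2(FPKM + 1), 4 with a pseudocount of 0.1, 6 of 77 tested with filterByExpr, 6 of 94 tested with no filter and 6 with the muscle share as a covariate. With the replicate block it was 15 in edgeR, where 5.05% of all genes passed, and 18 in limma. In the unpaired edgeR fit 2.77% of all genes passed. The share over all genes is not given here for every fit, so nothing about the members is read from these counts. Leaving out a library in turn gave 1 to 11, with 1 without greenish grey library 2 or 3, 8 without golden library 3 and 11 without golden library 1 or greenish grey library 1. The adjusted count was 0 in every fit but DESeq2, which had 1. The median over members was above 0 in every fit run. It was 0.18 to 0.33 in limma on FPKM, where the median of all genes was -0.14 to -0.046, 0.33 with filterByExpr, 0.28 with no filter and 0.40 with the muscle covariate, and with a library left out it ranged from 0.34 (golden library 1) to 1.23 (greenish grey library 1). Among named genes, LOC113065017 reversed to -0.24, -0.24 and -0.23 in limma with pseudocounts of 1, 0.1 and 5, to -0.24 with the replicate block in limma, to -0.10 with the block in edgeR and to -0.54 with the muscle covariate. LOC113046611 (-0.064) and LOC113120706 (-0.49) reversed with that covariate, as did LOC113046907 (-0.50). LOC113046946 reversed to -0.017 and -0.25 in limma with pseudocounts of 1 and 0.1, to -0.017 with the block in limma, to -0.15 with the block in edgeR and to -0.66 with the muscle covariate. LOC113064328 reversed to -0.048 and -0.087 in limma with pseudocounts of 1 and 0.1 and to -0.048 with the block in limma. With a library left out, LOC113108431 ranged from -2.56 to 0.24, LOC113046611 from -1.07 to 1.44, LOC113065017 from -0.84 to 0.62, LOC113120706 from -0.53 to 1.17, LOC113109337 from -2.70 to 0.30, LOC113109947 from -2.57 to 0.25, LOC113046946 from -1.67 to 1.41, LOC113046907 from -0.21 to 1.37, LOC113111772 from -0.021 to 3.73 and LOC113064328 from -0.45 to 0.61. LOC113109337, a calsequestrin-2, was picked after its values had been seen. The cause of these changes was not tested. With 3 libraries a group and muscle shares that differ several-fold within a colour, differences of several standard errors could stay undetected. LOC113039862 at 4.55 (SE 0.88) had an adjusted p of 0.9998 in the unpaired edgeR fit. Genes under 1 FPKM were not compared in that fit.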

Other observations

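Further calcium genes outside the rule were those annotated as S100-A1, a calcium sensor protein, and the trimeric intracellular cation channels, which balance charge across the store membrane. All 5 tested S100-A1 rows were lower in golden skin, with a median log2 fold change of -0.76, and 4 of them were lower in all 3 pairs. LOC113116482 had 145, 259 and 415 FPKM in golden libraries, against 305, 690 and 691 FPKM in greenish grey libraries (-0.94, SE 0.42), so the groups overlapped through golden library 3. None passed 2-fold at an unadjusted p under 0.05 in edgeR.

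The channel type A, known from muscle, was above 0 in both tested copies. LOC113069381 had 176, 139 and 38.6 FPKM in golden libraries, against 78.3, 27.8 and 33.7 FPKM in greenish grey libraries (1.54, SE 0.80). The 3 tested type B copies, the form of many other tissues, were below 0, with LOC113082454 at 5.53, 6.46 and 6.403 FPKM in golden libraries, against 13.02, 11.8 and 7.42 FPKM in greenish grey libraries (-0.69, SE 0.36). These genes were named after their values had been seen.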
